A study of Mus musculus with 6 samples.

Results

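The genes of the cytosolic ribosomal proteins were examined in macrophages sorted from Day 3 dorsal skin wounds of young and aged mice. A gene was a member when its symbol followed the Rps or Rpl naming pattern, or was Rpsa, Rplp0, Rplp1 or Rplp2, and the deposited annotation called it protein coding, while the S6 kinase genes were left out. This gave 81 genes of 15168 in the table, 32 of the small and 49 of the large subunit. Female wild-type C57BL/6J mice carried full-thickness excisional wounds on the back, and cells positive for F4/80 and CD64 were sorted from the digested tissue 3 days later. The groups were 3 young samples (12 weeks by the sample label) and 3 aged samples (24 months), in sets A, B and C, with no other treatment or genotype, and mice were kept at either of 2 sites that the labels do not assign to samples. The labels do not say that the 3 samples of an age came from separate animals, so the p-values below measure the spread between these samples, which may be technical in part.

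A ribosome is built from RNA and nearly all of the ribosomal proteins in equal number, and cells tend to make these proteins together because their mRNAs share a regulatory tract. That tract, the 5′ terminal oligopyrimidine (TOP) motif, is a C at the first transcribed base followed by a run of pyrimidines, and mTORC1 acts on translation of such mRNAs rather than mainly on their abundance. Ribosomal protein genes are also among the most copied genes of mammals, since their short mRNAs were often reverse transcribed into processed pseudogenes. Activated macrophages make much protein, and several ribosomal proteins have roles outside the ribosome in these cells.

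The start sites of several members show the tract. Each line below holds 30 bases of the sense strand, from 10 bases before the RefSeq start to 20 bases from it (GRCm38.p6), and capitals mark the pyrimidine run that begins at the first transcribed base. Rps6 is the substrate of S6 kinase, Rps10 is modified on collided ribosomes, and Rpl15, Rpl28 and Rps27 show runs of other lengths, while Rps27l and Rpl11, the members called lower in aged macrophages, hold no such run at the RefSeq start.
Rps6: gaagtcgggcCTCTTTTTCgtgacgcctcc
Rps10: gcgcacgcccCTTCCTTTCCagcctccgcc
Rpl15: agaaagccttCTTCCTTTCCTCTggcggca
Rpl28: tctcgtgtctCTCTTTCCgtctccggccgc
Rps27: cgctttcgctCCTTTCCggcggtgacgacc
Rps27l: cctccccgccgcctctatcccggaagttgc
Rpl11: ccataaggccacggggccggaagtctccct
The windows lie at chr4:86857348-86857377 on the minus strand (Rps6), chr17:27635225-27635254 on the minus strand (Rps10), chr14:18270967-18270996 on the minus strand (Rpl15), chr7:4792955-4792984 on the plus strand (Rpl28), chr3:90213629-90213658 on the minus strand (Rps27), chr9:66946076-66946105 on the plus strand (Rps27l) and chr4:136053374-136053403 on the minus strand (Rpl11).

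A RefSeq promoter was at hand for 61 of the 81 members, with 72 start sites. A run of at least 5 pyrimidines that began with C at the start itself was found at 13 of these sites (18.1%), compared with 2.51% of all 32851 promoters. A run that begins a base or more from the annotated start, as in the Rps27l window, was not counted. In the whole 300-base promoters, searched on both strands, CCGGAAG was held by 37.5% of the member promoters and 8.86% of all. GGGCGG was held by 61.1% of the member promoters and 35.7% of all, and TATAAA by 9.72% and 13.6%. These letter matches describe the promoters and say nothing of which factors bind them. The median log2 fold change with age was -0.23 for the 13 genes with the tract and -0.26 for the other 47 tested members with a promoter. Windows with a pyrimidine run placed otherwise, as in Rpl13a and Rpl27a, fall among the 47, so these medians do not compare TOP mRNAs with others.

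Counts per sample ran from 15270106 to 17927485. The sort markers Ptprc, Itgam, Adgre1 and Fcgr1 were present in all samples. Of these, Itgam was called higher in aged samples (log2FC 0.99, edgeR adjusted p = 0.00735, called in 6 of the 6 fits that each left out 1 sample) and Adgre1, which encodes F4/80, lower (log2FC -0.69, edgeR adjusted p = 0.0292, called in 2 of 6). Among markers of other cells, the 6 keratinocyte genes summed to 135 CPM (counts scaled to TMM-corrected library sizes) in aged sample B and to at most 1.33 CPM in each other sample, and the 6 fibroblast genes to 119 CPM in aged sample B against 12.4 to 41.0 CPM elsewhere. The 9 neutrophil genes in the table summed to 520 to 931 CPM in young and 668 to 1252 CPM in aged samples, with Ly6g at 6.14 to 10.9 and 6.18 to 9.60 CPM, and the sort did not exclude cells with Ly6G. The 5 erythroid genes summed to 153 to 490.1 CPM in young and 41.8 to 152 CPM in aged samples, and 4 of them were called lower, while 2 of the 9 neutrophil genes, Cxcr2 and Retnlg, were called higher. The 4 erythroid calls held in 2 or 3 of the 6 fits without 1 sample and were lost with a trend on transcript length and GC content (edgeR adjusted p 0.0612 to 0.0840), while the neutrophil calls held in 2 and 1 of those fits and were kept with the trend (0.0433 and 0.0229). Pecam1, an endothelial marker that myeloid cells also express, was called higher (8.03 to 25.9 CPM on average, log2FC 1.69, edgeR adjusted p = 0.00220, called in 6 of 6 such fits). The 4 endothelial genes summed to 11.7 to 12.6 CPM in young and 25.9 to 31.1 CPM in aged samples, and most of that sum was Pecam1. The others were lower on average in aged samples: Cdh5 (0.429 to 0.127 CPM), Kdr (1.95 to 1.46) and Vwf (1.61 to 1.23). Kdr and Vwf were not called, and Cdh5 was not tested. Cd79b, the 1 gene tested of 5 listed for B cells, was called lower (7.73 to 2.59 CPM on average, edgeR adjusted p = 0.0308, called in 1 of 6 and lost with the trend at 0.0644). Cd79a and Ms4a1, also listed for B cells, were too low to be tested and were higher on average in aged samples (0.0369 to 0.253 and 0.179 to 0.325 CPM). The keratinocyte gene Krt14 was called higher. None of the tested dendritic, fibroblast, mast or T and NK cell genes was called, and the 6 dendritic genes summed to 17.8 to 58.1 CPM in young and 31.2 to 96.0 CPM in aged samples, highest in aged sample A. The mast cell genes Cpa3, Mcpt4 and Cma1 were at 0 counts in aged samples B and C. The part of these markers and cells in the results below was not tested, and in sorted bulk samples fewer cells of a type cannot be told apart from less RNA per cell.

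The summed level of the ribosomal protein transcripts was lower in aged macrophages as counted, and the ages overlapped once a trend on transcript length and GC content was fitted in each sample. The members took 0.615%, 0.581% and 0.627% of all counts in young samples A, B and C, and 0.477%, 0.455% and 0.471% in aged samples A, B and C. All 3 aged samples lay below all 3 young samples. The mean share was 0.608% ± 0.0241 (SD, n = 3) in young and 0.468% ± 0.0118 in aged macrophages, a ratio of 0.769. The TMM scale applies a common factor to all genes of a library and does not remove a trend with transcript length. On the TMM scale the sums were 5537, 5329 and 6329 CPM in young and 5108, 4632 and 5213 CPM in aged samples, a ratio of means of 0.870. The groups did not overlap on this scale either, but the gap between the lowest young and the highest aged sample was much smaller. With the trend on length and GC content, the 80 members tested summed to 5229, 5051 and 5615 CPM in young and 5464, 5098 and 5568 CPM in aged samples, a ratio of means of 1.01, and the ages overlapped. This sum was added after the data were seen. No test was made of these sums.

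Both subunits shared the difference in counts. Small subunit genes held 0.266% to 0.289% of counts in young and 0.207% to 0.220% in aged samples, and large subunit genes 0.315% to 0.338% and 0.247% to 0.258%. The ratio of small to large subunit counts was 0.849, 0.843 and 0.857 in young and 0.851, 0.838 and 0.833 in aged samples. These ratios overlapped, so the balance of the subunits did not separate the ages. A few genes carried much of the sum. Rplp0, the scaffold of the P-stalk that recruits translation factors, made up 13.2% of member counts on average, Rpl4 7.49%, Rps3 7.24%, Rps9 6.30% and Rps2 5.57%.

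**Figure D1:**
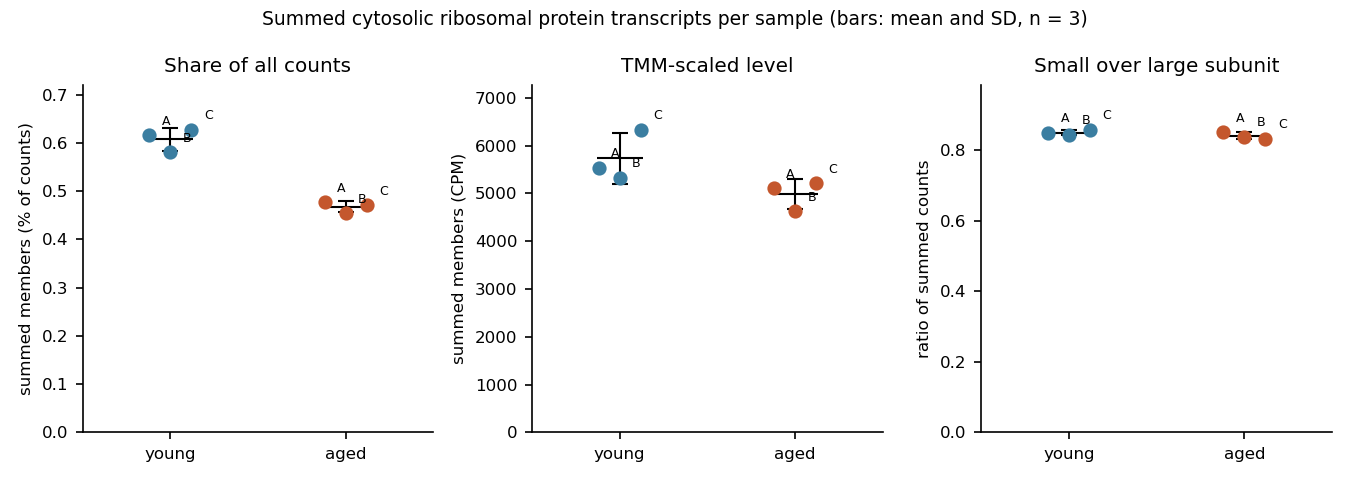
Summed transcripts of the 81 ribosomal protein genes in each of the 6 samples, as a percent of all counts (left), in TMM-scaled CPM (middle) and as the ratio of small to large subunit counts (right). Points are samples A, B and C of each age, and bars show the mean and SD of 3. The aged samples lie at 0.455% to 0.477% of counts and the young samples at 0.581% to 0.627%, while the subunit ratios overlap. No length and GC trend was fitted for these values, and with it the summed levels overlap, with a ratio of means of 1.01.

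Single members were then compared between the ages. After the filter on low counts, 80 of the 81 members were tested (Rpl39l was not, with 0 to 4 counts a sample), among 11878 genes. Of these members 0 were called higher and 2 lower in aged macrophages (edgeR quasi-likelihood test, Benjamini-Hochberg adjusted p under 0.05 over all genes tested). Over all genes, 9.73% were called higher and 7.97% lower, so the 2.5% of members called lower is no more than the share over all genes. At an unadjusted p under 0.05, 19 members were lower and 0 higher, 23.8% of the tested members on the lower side against 16.5% of all genes, while 18.1% of all genes were on the higher side. With a change of over 2-fold as well, Rpl11 alone was called, 1.25% of members against 4.2% of all genes called lower and 4.59% called higher in this way. DESeq2 called 0 members higher and 3 lower (3.75%), where it called 12.4% of all genes higher and 9.16% lower. Limma-voom called 0 members higher and 13 lower (16.2%), where it called 16.3% of all genes higher and 14.4% lower.

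Direction was more uniform than the calls. Of the 80 tested members 74 had a log2 fold change (log2FC, aged over young, with its standard error, SE) under 0, compared with 51.2% of all genes tested. Their median was -0.26 and that of all genes -0.017. The median was -0.22 for the 32 small and -0.31 for the 48 large subunit genes. All aged samples lay below all young samples for 33 members (41.2%) and above them for 0, where 19.0% and 19.2% of all genes tested did so. Without aged sample B, which held keratin transcripts, Rpl11 was the 1 member called lower and the median was -0.22.

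**Figure D2:**
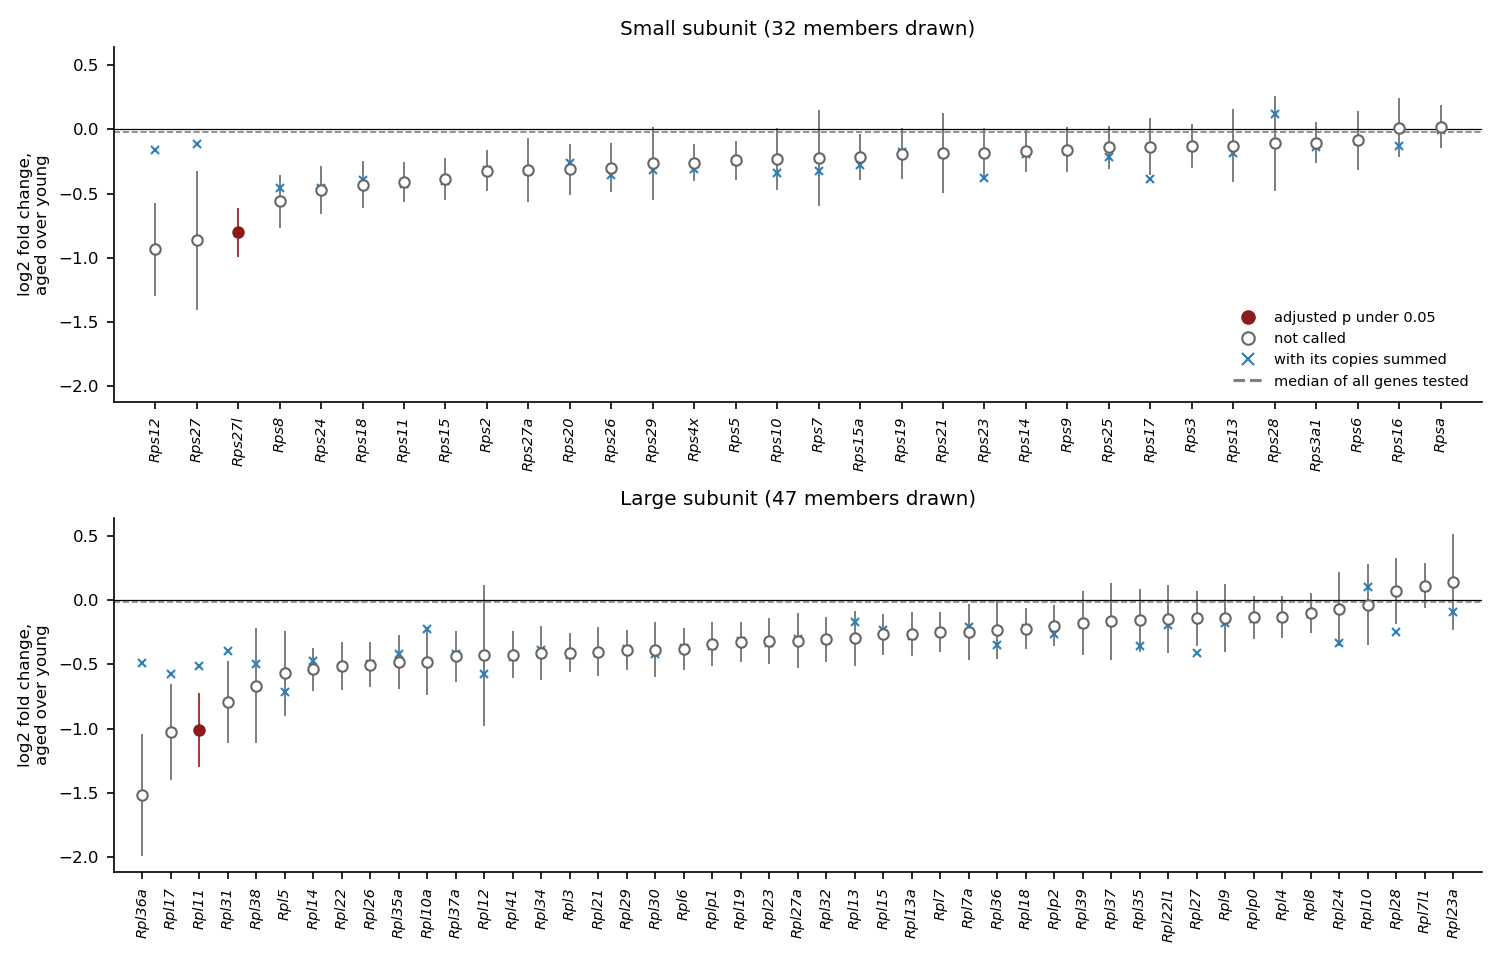
Log2 fold change of aged over young macrophages for 79 of the 80 tested members, small subunit above and large subunit below, ordered by value. Circles show the estimate with its standard error, filled where the adjusted p was under 0.05, crosses show the estimate after the counts of near-identical copies were added, and the dashed line is the median of all genes tested. Rps27l and Rpl11 are the filled points, and 74 of the 79 circles lie under 0.

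A shift of like size was seen in other short transcripts. Member transcripts had a median length of 681 bases, while the median over all genes tested was 2531 bases. Among genes that were neither members nor their copies, the median log2FC was -0.25 for 1318 genes with transcripts under 1000 bases and -0.19 for 2939 genes of 1000 to 2000 bases. It was 0.02 for 4507 genes of 2000 to 4000 bases and 0.26 for 2874 longer genes. When a trend on transcript length and GC content was fitted in each sample, the median of the members moved to -0.023, 44 of 80 lay under 0, beside 49.9% of all genes, and Rps27l was the 1 member still called, beside 5.53% of all genes called lower.

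**Figure D3:**
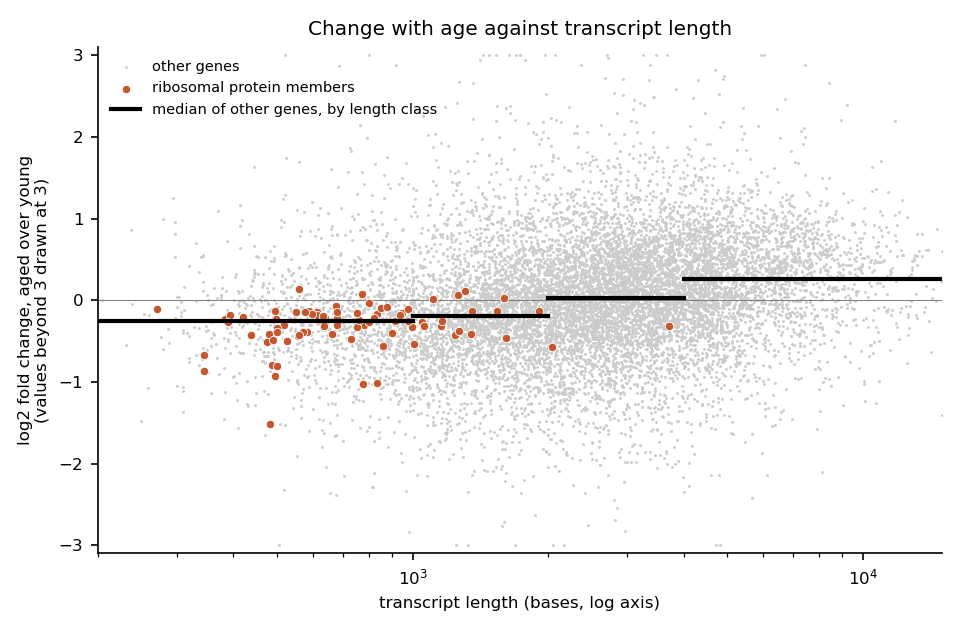
Log2 fold change of aged over young macrophages against transcript length (log axis) for ribosomal protein members and all other genes tested, each point a gene. Black lines give the median of the other genes in 4 length classes, from -0.25 under 1000 bases to 0.26 at 4000 bases or more. Most members sit among short genes whose median is near their own of -0.26.

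Rps27l was the member with the lowest p-value. It encodes a paralog of Rps27 that is known as a p53 target. Its level was 52.4, 36.5 and 56.1 CPM in young samples A, B and C and 26.4, 27.0 and 29.8 CPM in aged samples. The lowest young sample lay above every aged sample. It fell by the edgeR quasi-likelihood test (log2FC -0.80, SE 0.19, adjusted p = 0.0217). It was called in 2 of the 6 fits that each left out 1 sample, with adjusted p between 0.0206 and 0.105. With the trend on length and GC content its log2FC was -0.53 (edgeR adjusted p = 0.0454).

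Its partner Rps27 could hardly be read from its own row. Rps27 stood at 1.05, 1.11 and 1.12 CPM in young and 0.210, 0.828 and 0.741 CPM in aged samples, at most 18.9 counts a sample. Only 3.45% of the counts of Rps27 and its copies were on the gene itself in young and 2.09% in aged samples. With the copies summed, Rps27 stood at 35.1, 29.0 and 29.7 CPM in young and 27.4, 24.1 and 35.1 CPM in aged samples, with a log2FC of -0.11 (SE 0.19, edgeR adjusted p = 0.699). The ages overlapped. Rps27l was 149%, 126% and 189% of the Rps27 sum in young and 96.3%, 112% and 84.8% in aged samples, and these ratios did not overlap. An exact two-sided permutation test of the ratio gave p = 0.10, the smallest that 3 against 3 samples allow, and 0.20 after adjustment over the 4 paralog pairs compared. The coding sequences of the pair, in GENCODE M21, were 76.2% identical over 252 bases, and their first 90 bases are shown because they tell the 2 genes apart. Capitals mark the bases that differ.
Rps27: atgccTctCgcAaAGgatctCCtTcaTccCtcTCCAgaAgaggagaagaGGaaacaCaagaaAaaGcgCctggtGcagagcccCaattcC
Rps27l: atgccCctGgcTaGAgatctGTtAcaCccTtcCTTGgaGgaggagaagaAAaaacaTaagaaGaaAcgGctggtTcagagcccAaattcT
In mm10, Rps27 lies at chr3:90212522-90213651 on the minus strand and Rps27l at chr9:66946086-66949516 on the plus strand.

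Rps4l fell, with a lower log2FC than any member tested. It is related to Rps4x, but the annotation of the files calls it a transcribed processed pseudogene, so it is not one of the 81. It stood at 22.3, 22.7 and 29.9 CPM in young and 3.22, 8.85 and 8.28 CPM in aged samples, with no overlap. Its log2FC was -1.87 (SE 0.33, edgeR adjusted p = 0.00837), and it was called in 5 of the 6 fits that left out 1 sample. Rps4x, the X-linked gene of the small subunit protein, stood at 134, 129.9 and 139 CPM in young and 117, 109.7 and 110.2 CPM in aged samples. Its log2FC was -0.26 (SE 0.14, edgeR adjusted p = 0.233). Rps4l was 11.9%, 12.5% and 15.1% of Rps4x with its copies in young and 2.04%, 5.90% and 5.52% in aged samples (exact two-sided permutation p = 0.10, adjusted p = 0.20).

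No other paralog tested was called. Rpl22l1, which can stand in for Rpl22, was at 7.47, 5.57 and 7.33 CPM in young and 7.71, 4.90 and 5.81 CPM in aged samples, with a log2FC of -0.15 (SE 0.26). Rpl22 itself was at 17.8, 16.1 and 14.9 CPM in young and 10.6, 11.2 and 12.3 CPM in aged samples, without overlap, and its log2FC of -0.51 had an edgeR adjusted p of 0.0808. As a percent of Rpl22, Rpl22l1 was at 41.5 ± 7.01 (SD, n = 3) in young and 54.3 ± 15.8 in aged samples, and the exact permutation p was 0.30. The ratios overlapped between ages. Rpl7l1 was abundant, at 132, 118 and 147 CPM in young and 116, 154 and 159 CPM in aged samples, and overlapped between ages (log2FC 0.11, SE 0.18). Its partner Rpl7 was at 251, 258 and 285 CPM in young and 231, 199 and 237 CPM in aged samples (log2FC -0.25, edgeR adjusted p = 0.292), so every aged sample of Rpl7 lay below every young one without a call. Rpl39, a very small protein of the exit tunnel, was at 6.81 to 7.46 CPM in young and 4.90 to 7.84 CPM in aged samples, with overlap. Rpl3, which lies near the peptidyl transferase centre, had a log2FC of -0.41 (SE 0.15, edgeR adjusted p = 0.0840), with 48.4 to 52.7 CPM in young and 35.5 to 40.7 CPM in aged samples. Its row held 10.0% of its family's counts in young samples, and with copies its log2FC was -0.43 (edgeR adjusted p = 0.102). Rpl3l and Rpl10l were not analysed here.

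Rpl11 and Rpl5 form, with 5S RNA, the particle that binds MDM2 when ribosome assembly is disturbed. Rpl11 stood at 5.42, 5.28 and 4.36 CPM in young and 2.38, 2.99 and 2.10 CPM in aged samples, from 33.7 to 98.3 counts. No aged sample reached a young one. It fell with a log2FC of -1.01 (SE 0.29, edgeR adjusted p = 0.0383), and was called in 1 of the 6 fits that left out 1 sample. The counts on Rpl11 were 7.11% of those on it and its copies in young and 4.95% in aged samples. Rpl5 stood at 2.77 to 3.34 CPM in young and 1.61 to 2.61 CPM in aged samples and was not called (log2FC -0.57, edgeR adjusted p = 0.248).

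With the copies added, the sums for both proteins of the particle passed the test. Of the counts on Rpl5 and its copies, 1.37% were on Rpl5 in young and 1.49% in aged samples, and nearly all lay on 1 row, the transcribed processed pseudogene Gm15500, at 3334 to 4159 counts in young and 1961 to 2303 in aged samples, so the sum is close to that row alone. Rpl5 with its copies was at 218, 199.9 and 279 CPM in young and 139, 149 and 136 CPM in aged samples. It fell with a log2FC of -0.71 (SE 0.17, edgeR adjusted p = 0.0230), was called in 3 of the 6 fits without 1 sample, and kept an adjusted p of 0.0377 with the trend on length and GC content. Rpl11 with its copies was at 73.7, 62.5 and 77.9 CPM in young and 51.0, 49.5 and 49.5 CPM in aged samples. Its log2FC was -0.51 (SE 0.15, edgeR adjusted p = 0.0448), and it was called in 0 of those 6 fits, where the adjusted p ran from 0.0574 to 0.174. With the trend on length and GC content its log2FC was -0.24 and the call was lost (edgeR adjusted p = 0.265), as it was on the gene's own row (log2FC -0.74, edgeR adjusted p = 0.110). Mdm2, which the particle inhibits, rose from 349, 233 and 431 CPM in young to 484, 566 and 734 CPM in aged samples (log2FC 0.82, edgeR adjusted p = 0.0444), a call that held in 1 of the 6 fits without 1 sample and was lost with the trend on length and GC content (edgeR adjusted p = 0.0649). Cdkn1a, a p53 target, had a log2FC of 0.63 (edgeR adjusted p = 0.0890), was called in 2 of the 6 fits without 1 sample, and passed the test with the trend on length and GC content (log2FC 0.89, edgeR adjusted p = 0.0412). Trp53 had a log2FC of 0.06 (edgeR adjusted p = 0.839).

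**Figure D4:**
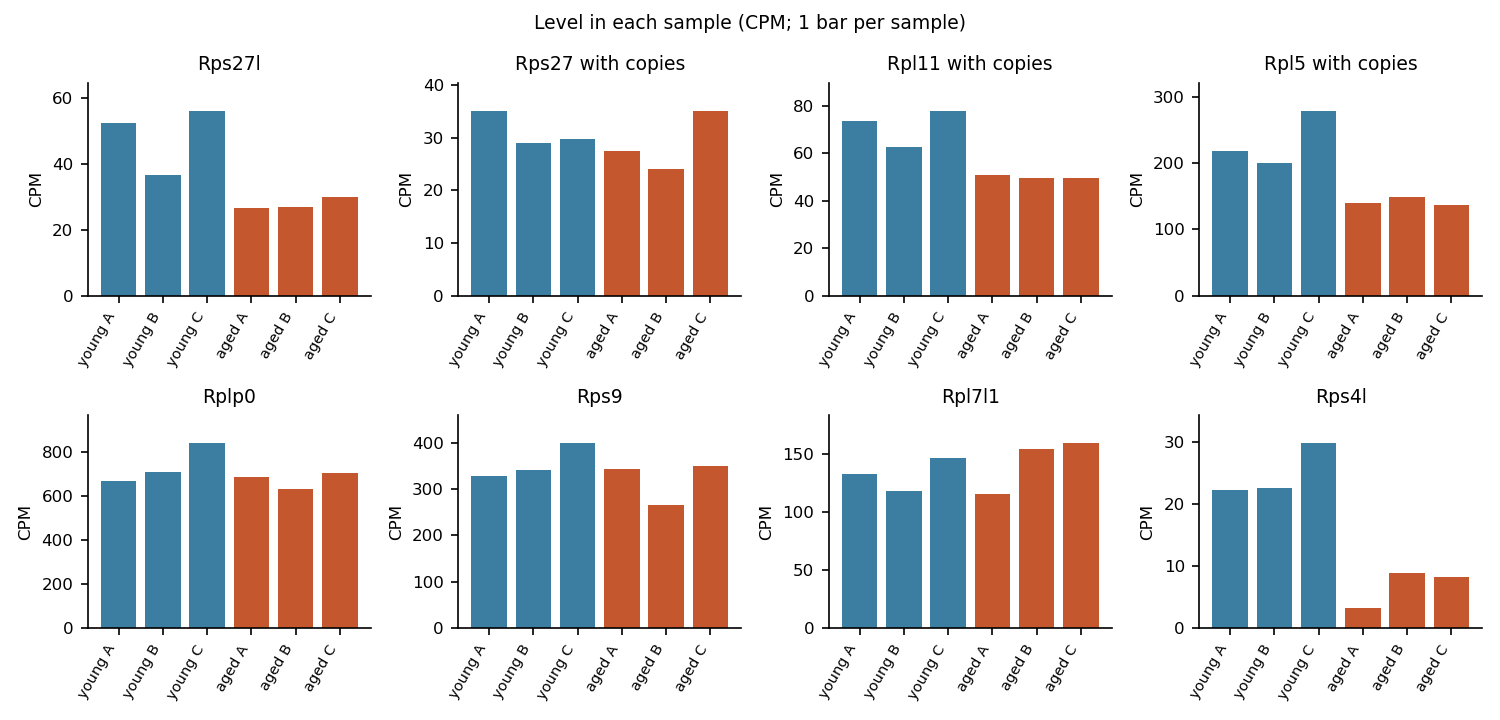
Level in CPM in each of the 6 samples, 1 bar per sample, for 8 genes, with the counts of near-identical copies added for Rps27, Rpl11 and Rpl5. Rps27l, Rpl11, Rpl5 and Rps4l show no overlap between young and aged samples, whereas Rps27, Rplp0, Rps9 and Rpl7l1 overlap.

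Summing the copies into their genes gave 5 members called lower. They were Rpl5, Rpl11, Rpl12, Rpl17 and Rps27l, 6.25% of the tested members beside 8.24% of all genes called lower, and 0 were called higher, beside 9.71% of all genes. The median log2FC was -0.31, and 76 of 80 lay under 0, beside 51.3% of all genes. Rpl12, a protein at the base of the P-stalk, was at 54.2, 46.1 and 54.2 CPM in young and 34.4, 35.7 and 33.4 CPM in aged samples with its copies (log2FC -0.58, edgeR adjusted p = 0.0312). On its own row, with 1.77% of these counts in young samples, it held 6.39 to 25.8 counts and a log2FC of -0.43 with a standard error of 0.55. Rpl17 with its copies was at 74.4 to 96.7 CPM in young and 47.2 to 64.3 CPM in aged samples (log2FC -0.58, edgeR adjusted p = 0.0483). It was called in 0 of the 6 fits without 1 sample (adjusted p 0.0580 to 0.191), and Rpl12 in 2 of them (0.0425 to 0.126). The number of members called lower was 3 without young A, 4 without young B, 1 without aged B and 0 without young C, aged A or aged C. With the trend on length and GC content as well, Rpl5 and Rps27l were called, 2.5% of the tested members beside 5.63% of all genes called lower. The sums were added after the data were seen.

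The members of lowest log2 fold change included several that are thinly counted. Rpl36a had the lowest, -1.52 (SE 0.47, edgeR adjusted p = 0.0503), with 24.4 to 28.8 counts in young and 6.20 to 12.3 counts in aged samples. With its copies its log2FC was -0.49 (adjusted p = 0.216). Rpl17 followed at -1.03 (adjusted p = 0.0809), then Rpl11, Rps12 at -0.93 (adjusted p = 0.0975) and Rps27 at -0.86 (adjusted p = 0.287). With its copies Rps12 was at -0.16 (adjusted p = 0.541). Among the highest were Rpl23a at 0.14, Rpl7l1 at 0.11, Rpl28 at 0.07 and Rpsa at 0.02, each with edgeR adjusted p of 0.688 or more. Adding the copies turned the direction of Rpl23a (log2FC -0.090, adjusted p = 0.754), Rpl28 (-0.25, adjusted p = 0.313) and Rpsa (-0.0054, adjusted p = 0.987), while Rpl7l1 stayed above 0 (0.10, adjusted p = 0.714). Rpsa, which is also a laminin receptor, was at 186, 227 and 241 CPM in young and 230.5, 212 and 222 CPM in aged samples, and the ages overlapped.

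Many counts lay on sequences that match the members closely. GENCODE M21 held 991 copies of members with at least 90% identity over at least 80% of the coding sequence, for 77 of the 81 genes, and 252 of them were rows of the table, 226 as processed pseudogenes, 14 as transcribed processed pseudogenes, 11 as protein-coding genes and 1 as a non-coding RNA. Rows of all these kinds were added to the sums. The coding rows include Gins1, a DNA replication gene with a 93.3% match to the very short coding sequence of Rpl41, and Wdr89, which holds a match to that of Rplp2. Without these 2 rows in the sums, chosen after their values were seen, the same 5 members were called lower and the median log2FC was -0.31. The rows of copies held 0.626% to 0.694% of counts in young and 0.482% to 0.521% in aged samples, more than the members themselves. Among the 149 copies tested the median log2FC was -0.31. The median member held 46.8% of its family's counts in young and 47.1% in aged samples. This share changed by 5 percentage points or less between ages for 78 members, and by 8.77 points at most, for Rpl36a.

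Rpl10 had the lowest share of its family. Of the counts on Rpl10 and its copies, 0.635% were on Rpl10 in young and 0.577% in aged samples. Another 3831 to 4471 counts a sample were on Rpl10-ps1, a pseudogene on chromosome 2 that matches all 642 bases of the coding sequence. Rpl10-ps3, on chromosome 9 and annotated as protein coding, also matches the whole coding sequence and held 3232 to 4194 counts a sample. In mm10 Rpl10 lies at chrX:74270812-74273135 on the plus strand. The first 75 bases of Rpl10 and Rpl10-ps1 are shown as a stretch of their match.
Rpl10: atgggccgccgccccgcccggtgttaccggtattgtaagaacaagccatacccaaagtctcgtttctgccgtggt
Rpl10-ps1: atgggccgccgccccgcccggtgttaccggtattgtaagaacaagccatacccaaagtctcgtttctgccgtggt
With its copies Rpl10 was at 489, 481 and 526 CPM in young and 565, 480.3 and 557 CPM in aged samples (log2FC 0.10, edgeR adjusted p = 0.691), and on its own row at 2.46 to 3.71 CPM.

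Members whose counts were hardly shared gave a similar picture of the change. In 16 members over 90% of the family's counts were on the gene in both ages, and the 15 tested had a median log2FC of -0.24, from -0.80 for Rps27l to 0.11 for Rpl7l1. In 31 members under 25% were on the gene, with a median of -0.27. Levels per kb of transcript differed far more, with a median of 115 CPM per kb in the first group and 6.85 in the second, and across the 81 members Spearman's rho between this share and the level per kb was 0.66, a description over genes that share the same 6 libraries. Per kb of transcript the highest members were Rplp0 at 519 CPM per kb, Rps9 at 449.8, Rps2 at 299 and Rps14 at 274. The lowest were Rpl39l at 0.247, Rpl12 at 0.627, Rpl5 at 1.28 and Rpl36a at 2.19 CPM per kb, and all but Rpl39l held under 25% of their family's counts.

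**Figure D5:**
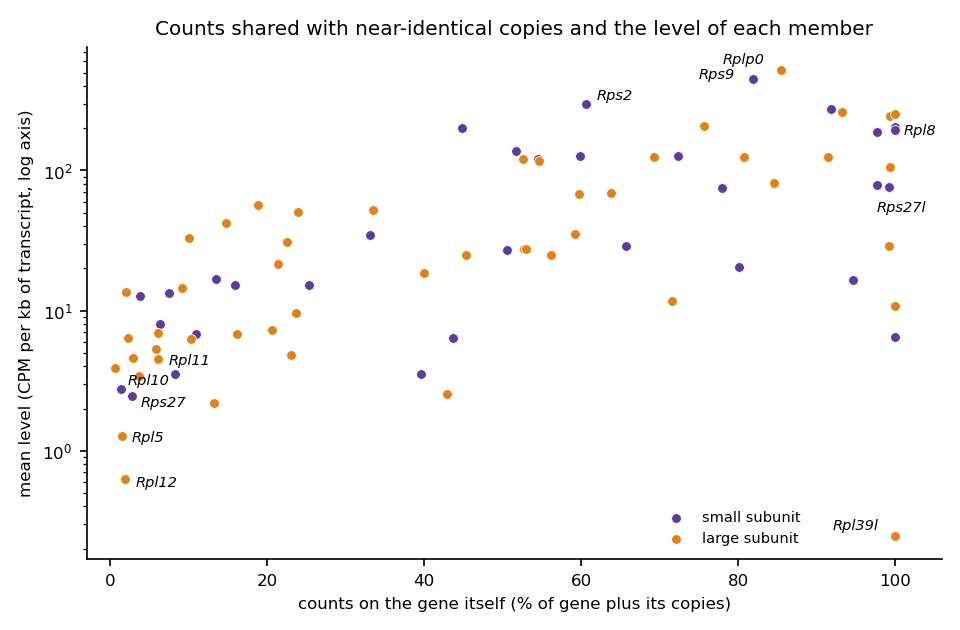
Percent of the counts of a member and its copies that lay on the member itself (mean of both ages) against its mean level in CPM per kb of transcript (log axis), 1 point per member, coloured by subunit. The median is 6.85 CPM per kb among members with under 25% of these counts and 115 among those with over 90%.

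The P-stalk proteins recruit elongation factors and were measured at unequal levels. Rplp0 was at 666, 707 and 839 CPM in young and 683, 632 and 701 CPM in aged samples, with a log2FC of -0.13 (SE 0.17). Rplp1 was at 39.4, 31.9 and 42.9 CPM in young and 30.1, 32.2 and 27.7 CPM in aged samples (log2FC -0.34, edgeR adjusted p = 0.187), and Rplp2 at 27.9 to 33.2 and 26.0 to 28.4 CPM (log2FC -0.20). None was called, and all overlapped between ages on their own rows. The only copy row of Rplp2 was the separate protein-coding gene Wdr89, at 188 to 347 counts a sample. With that row added Rplp2 did not overlap, at 45.2 to 52.9 CPM in young and 40.2 to 44.0 CPM in aged samples. The sum was not called (log2FC -0.26, edgeR adjusted p = 0.248).

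Rps6, Rps10, Rps20, Rpl13a, Rps27a and Rps19, which have roles in signalling, stress or disease, were not called. Rps6, the S6 kinase substrate, was at 12.9, 11.6 and 9.71 CPM in young and 10.6, 8.47 and 13.2 CPM in aged samples (log2FC -0.08, edgeR adjusted p = 0.824). This row held 3.72% of the counts on Rps6 and its copies in young samples, and the sum was at 331, 267 and 330 CPM in young and 307, 255 and 311 CPM in aged samples, with overlap (log2FC -0.09, edgeR adjusted p = 0.738). Rps10 and Rps20, which are ubiquitinated on collided ribosomes, had log2FC of -0.23 (adjusted p = 0.533) and -0.31 (adjusted p = 0.298), and Rps20 did not overlap between ages, at 14.2 to 14.7 against 9.49 to 13.3 CPM. Rps10 held 13.0% of its family's counts in young samples, and with its copies it did not overlap either, at 66.0 to 74.8 CPM in young and 52.1 to 56.6 CPM in aged samples, without a call (log2FC -0.34, edgeR adjusted p = 0.135). Rpl13a, which leaves the ribosome to silence inflammatory mRNAs after interferon gamma, was at 131, 132 and 164 CPM in young and 119.7, 104 and 132 CPM in aged samples (log2FC -0.26, adjusted p = 0.299). Rps27a, made as a fusion with ubiquitin, and Rps19, the most often mutated gene of Diamond-Blackfan anaemia, had log2FC of -0.31 and -0.19 with standard errors of 0.25 and 0.20. With copies these were -0.32 (adjusted p = 0.279) and -0.18 (adjusted p = 0.538), and Rps27a held 7.50% of its family's counts in young samples.

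Measured against the ribosomal protein total, with library sizes set to the summed member counts, 0 members were called higher and 0 lower (edgeR quasi-likelihood test), while 14.8% of all genes were called higher and 3.27% lower on this scale. At an unadjusted p under 0.05, 4 members were lower and 0 higher, beside 8.55% of all genes on the lower side, and DESeq2 with size factors on the members called 0. The lowest p-values were those of Rps27l (log2FC -0.59, adjusted p = 0.0501), Rpl36a (-1.30, 0.0910), Rpl11 (-0.81, 0.112) and Rpl17 (-0.83, 0.143). Without young sample B, 1 member, Rps27l, was called lower. On shares of the total, 13 members (16.2%) lay lower in every aged than in every young sample, where 11.0% of all genes did, and 1 (1.25%) lay higher, where 26.8% did. That 1 was Rplp0, chosen here after its values were seen, at 12.0%, 13.3% and 13.3% of member counts in young and 13.4%, 13.6% and 13.5% in aged samples.

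Other genes of translation were read from lists. Among 4 ribosomal proteins outside the naming pattern, 0 were called. The highest was Fau, which encodes a small subunit protein fused to a ubiquitin-like one (log2FC 0.00), and the lowest Rack1, a scaffold on the small subunit, at -0.45 (edgeR adjusted p = 0.0769). Of 18 other genes with TOP mRNAs, 0 were called higher and 2 lower, beside 9.73% and 7.97% of all genes, and 13 lay under 0, beside 51.2% of all genes, with a median of -0.29. Those called were Npm1, a nucleolar chaperone of ribosome assembly, at -0.80 (SE 0.16, edgeR adjusted p = 0.0130), called in 4 of the 6 fits without 1 sample, and Naca, which binds nascent chains, at -0.66 (adjusted p = 0.0238), called in 2 of them and lost with the trend on length and GC content (adjusted p = 0.0765). The elongation factor gene Eef1a1 was at -0.03. The median and the count under 0 were taken without the trend on length and GC content. With it Eef1a1 (log2FC 0.085) and Eif3h (-0.17 without it, 0.036 with it) lay above 0, and none of the 18 turned below 0. The lowest was the non-coding Snhg1 at -1.29 (adjusted p = 0.0920) and the highest Eif4b at 0.18.

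Of 15 genes that assemble ribosomal proteins or late pre-ribosomes, 1 was called lower and 0 higher, and 13 lay under 0, where 7.97% of all genes were called lower and 51.2% lay under 0. Tsr2, which carries Rps26 to the pre-ribosome, fell from 11.5, 10.7 and 12.0 CPM in young to 6.80, 5.67 and 4.76 CPM in aged samples (log2FC -0.99, SE 0.22, edgeR adjusted p = 0.0186) and was called in 4 of the 6 fits without 1 sample. Its client Rps26 was at 18.9 to 25.8 CPM in young and 15.7 to 18.8 CPM in aged samples, with a log2FC of -0.30 (SE 0.19, adjusted p = 0.293). Aamp was the highest at 0.11.

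Of 9 genes that detect or clear stalled ribosomes, 2 were called higher and 0 lower, where 9.73% of all genes were called higher and 7.97% lower. Map3k20, the kinase that senses stalled and collided ribosomes, rose from 13.4, 7.39 and 9.64 CPM in young to 24.2, 31.1 and 26.1 CPM in aged samples (log2FC 1.42, SE 0.24, edgeR adjusted p = 0.00709). It was called in 5 of the 6 fits without 1 sample. Hbs1l, a rescue factor, rose with a log2FC of 0.65 (adjusted p = 0.0429), which held in 1 of those fits and was lost with the trend on length and GC content (adjusted p = 0.0544). Zfp598, the ligase that marks collided ribosomes, was the lowest at -0.18 (adjusted p = 0.750). Of 15 genes of mTORC1 and TOP mRNA control, Myc was the 1 called, higher at 0.78 (adjusted p = 0.0458) and in 1 of those fits, and Mlst8 was the lowest at -0.20. The medians of these lists were 0.36 and 0.14, and that of the assembly list -0.41, all without the trend on length and GC content.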

How the data were processed

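Macrophage RNA had been amplified with a SMART-Seq v4 kit and sequenced on a NovaSeq. Per the labels and methods, the authors aligned reads with STAR 2.7.3a to mm10 and quantified Ensembl 102 transcripts in Partek Flow, and they deposited expected counts per gene, of which 30.3% to 33.9% per sample were not whole. How reads shared by a gene and its pseudogenes were divided, and whether strand was used, is not given in the sources used here. A second deposited table holds the authors' own comparison (p-values, fold changes and normalised values) and was not used. 0 sample columns were unmapped.

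Counts were rounded and tested in R 4.3.3 with edgeR 4.0.16 (TMM, filterByExpr by age, quasi-likelihood, Benjamini-Hochberg over all genes tested, threshold 0.05). The design assumed raw counts, and expected counts were rounded for this reason. DESeq2 1.42.0 and limma-voom 3.58.1, other scalings and filters, the set letter as a block, a spline trend with 5 degrees of freedom for transcript length and GC, and leaving out each sample were alternatives. Summing copies (blastn 2.17.0 of member coding sequences against GENCODE M21 transcripts), with and without Gins1 and Wdr89, was chosen after seeing the data. The fits were tested on simulated data. Depth limits members with few counts, and standard errors show it.

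Members and gene lists were chosen with earlier results of these data known. Named were the 5 highest and 5 lowest members by log2 fold change, the 4 highest and 4 lowest by level per kb, the P-stalk, the paralogs with their partners, 9 members with known roles outside or on the ribosome (Rpl5, Rpl11, Rps6, Rps10, Rps20, Rpl13a, Rpsa, Rps27a, Rps19), and the highest and lowest gene of each list. A member that this rule names is not reported here. Transcript length is that of the shortest principal transcript. Gene coordinates are those of the deposited annotation in mm10. Start site sequences are from RefSeq (GRCm38.p6).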

Additional observations from a re-analysis of the deposited data

How the results depend on the processing

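The number of members called lower, 2 in the edgeR fit, was 4 with TMM factors computed without the members (beside 8.1% of all genes called lower), 18 with library totals in place of TMM (22.5% of members beside 13.1%), 13 with limma-voom (16.2% beside 14.4%), 4 with at least 10 counts in every sample (beside 9.18%), 1 with the trend on length and GC content (beside 5.53%), 1 with the 2-fold limit (beside 4.2%) and 5 with copies summed (beside 8.24%), with or without Gins1 and Wdr89. DESeq2 called 3 (beside 9.16%). Library totals called 4.93% of all genes higher, compared with 9.73% with TMM. In these and the other alternatives run, 0 members were called higher. Leaving out 1 sample gave 0 to 3 members lower: 0 without young C, aged A or aged C, 1 without young A or aged B, and 3 without young B, where 0.548% to 9.29% of all genes were called lower. Aged B is the sample with keratin transcripts. The median log2 fold change of the members, -0.26, was -0.44 with library totals, -0.023 with the trend on length and GC content and -0.060 with that trend and copies summed, and ran from -0.31 to -0.22 without 1 sample. Library totals moved the median of all genes to -0.20, so relative to it the members differ by much the same amount. With fewer samples the tests also have less power. Otherwise the cause of these differences was not tested.

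Within the ribosomal protein total, 0 members were called lower in all fits but the one without young B, which called 1, so the range without 1 sample was 0 to 1. The median, -0.06, was 0.017 with TMM factors over the members and 0.021 with DESeq2 size factors on them. Samples that share a set letter had deviations correlated at 0.18 (A), -0.02 (B) and 0.11 (C), and samples of unlike letters at -0.22 to 0.14. These values do not settle whether the letters are pairs. The main fit took no block because the methods of the study name none. With the set letter as a replicate block, 2 members were called lower and 0 higher with a median of -0.26, and within the total 0 were called.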
